A study of Mus musculus with 31 samples.

Results

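Of 19 tumors in a mouse NDR1 series, the 4 with the highest B cell marker signal were compared with the other 15 across all genes. The 4 were chosen by the mean log2 level of B cell marker genes on these same arrays, represented here by Cd79a, Cd79b and Ms4a1. They were HT tumor 1, HT tumor 3, KO tumor 4 and KO tumor 6, numbered as in the sample titles. Because measured values chose them, every difference in expression between the 4 and the other 15 is given as a description with no test. Their genotype labels, which the choice did not use, were tested.

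RNA was measured on 31 Affymetrix mouse expression arrays, 1 per sample. All samples came from C57BL/6 mice that were wild-type (NDR1+/+, WT), heterozygous (NDR1+/-, HT) or homozygous mutant (NDR1-/-, KO) for NDR1, a protein kinase encoded by Stk38. The 19 tumors (5 WT, 7 HT and 7 KO) arose after the alkylating mutagen ENU (N-ethyl-N-nitrosourea) at 100 mg/kg, and were taken when a tumor developed or at 9 months. The 12 untreated thymi, 4 per genotype with 2 females and 2 males each, were the controls. All 4 chosen tumors were female, and the other 15 were 13 female and 2 male. Titles speak of thymocytes and tumor cells while the source label reads thymus, and whether every array was a separate animal is not stated, so spread between arrays may be partly technical. The labels do not name the disrupted part of Stk38.

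B cells recognise antigen through a membrane immunoglobulin that signals through its partner chains CD79A and CD79B, and mature B cells also carry CD20, the product of Ms4a1. Chemokine receptors such as CXCR5 guide them into follicles of lymph nodes and spleen, where they present antigen on MHC class II to T cells. The normal thymus holds mostly developing T cells, which depend on Notch1 signals, and only few B cells. In whole-sample RNA, more cells of a type and more RNA per cell cannot be told apart.

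Values below are log2(intensity + 1), and a difference is the mean of the 4 minus the mean of the other 15 on that scale. Values of the 4 are always listed in the order HT tumor 1, HT tumor 3, KO tumor 4 and KO tumor 6, and 3 values for the others are their lowest, median and highest. A gene was called higher (or lower) where all 4 values lay above (or below) all 15 others and the difference was at least 1 in size, a 2-fold change.

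The mean of Cd79a, Cd79b and Ms4a1 was 13.42, 11.93, 13.54 and 13.49 in the 4. In the other 15 it ran from 4.38 to 10.88, with a mean of 6.70 ± 1.81 (SD, n = 15), and in the thymi it was 6.89 ± 0.38 (SD, n = 12). Just inside the choice lay HT tumor 3 at 11.93, and just outside it lay KO tumor 3 at 10.88. HT tumor 7 came next at 9.00 and WT tumor 1 at 8.70. The other 15 thus had no single low level. Cd79a measured 13.37, 11.45, 13.87 and 13.49, against 4.20, 6.11 and 10.31 in the others. Ms4a1 measured 12.83, 11.71, 12.90 and 13.29, against 3.99, 6.03 and 10.21. Cd79b measured 14.05, 12.64, 13.84 and 13.70, against 4.96, 7.43 and 12.12. For each of the 3 genes the groups did not overlap, which the choice itself favours, and HT tumor 3 was the lowest of the 4. Thymus levels were 5.28 for Cd79a, 5.99 for Ms4a1 and 9.41 for Cd79b, so Cd79b had the highest untreated level of the 3.

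**Figure D1:**
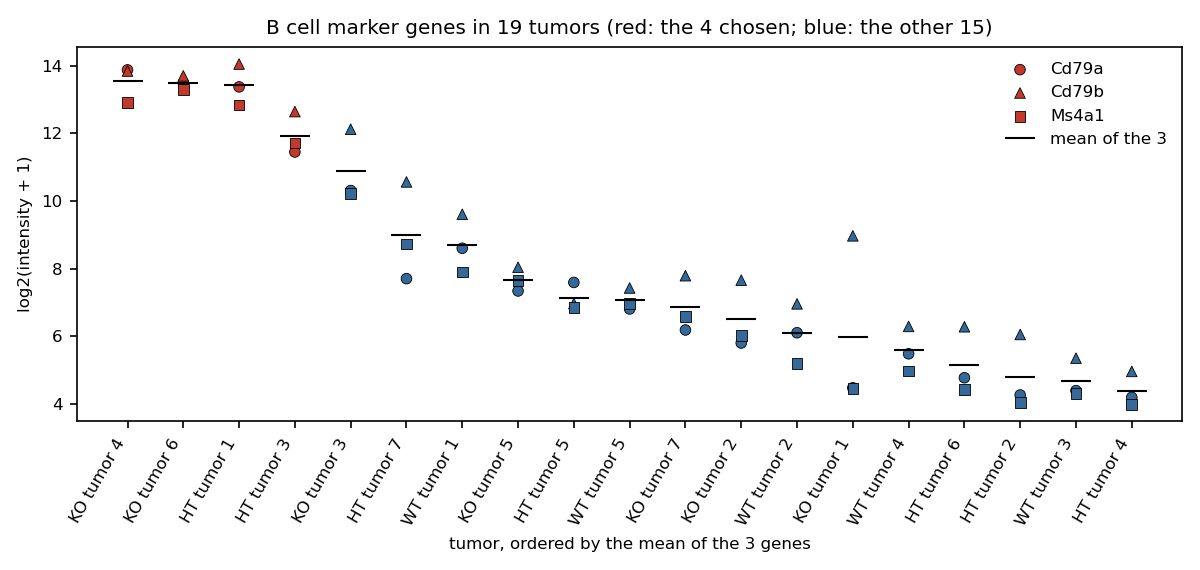
Levels of Cd79a, Cd79b and Ms4a1 (log2(intensity + 1), vertical axis) in each of the 19 tumors, ordered by the mean of the 3 genes (black bar). The 4 chosen tumors (red) have means from 11.93 to 13.54, and KO tumor 3, the highest of the other 15 (blue), has 10.88.

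Over all 14017 genes measured, 919 were called higher in the 4 (6.56%) and 684 lower (4.88%). These shares come from the arrays that chose the tumors, and nothing is read from them beyond their size. Counts of called members in the gene lists below stand beside these shares. A list with 1 member called, such as glycolysis, lies near them. The median difference over all genes was -0.08, and 43.6% of genes had a difference above 0. Within the KO label (2 tumors against 5) and within the HT label (2 against 5), the sign of every called gene is fixed by the call rule. A difference of 1 in size was reached by 867 of the 919 and 658 of the 684 in KO, and by 883 and 636 in HT. Across genes, the 4 arrays had a median pairwise Pearson r of 0.969 with each other, 0.859 with the other 15 and 0.906 with the thymi, whereas the other 15 had 0.935 among themselves and 0.935 with the thymi. The correlations share genes and normalization and are descriptive. KO tumor 3, next in marker level, had a median r of 0.835 with the 4 and 0.880 with the other 14, and passed the midpoint between the group means for 129 of the 919 higher and 64 of the 684 lower genes. HT tumor 4, lowest of the 19 in marker level at 4.38, passed that midpoint for 52 of the higher and 136 of the lower genes.

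**Figure D2:**
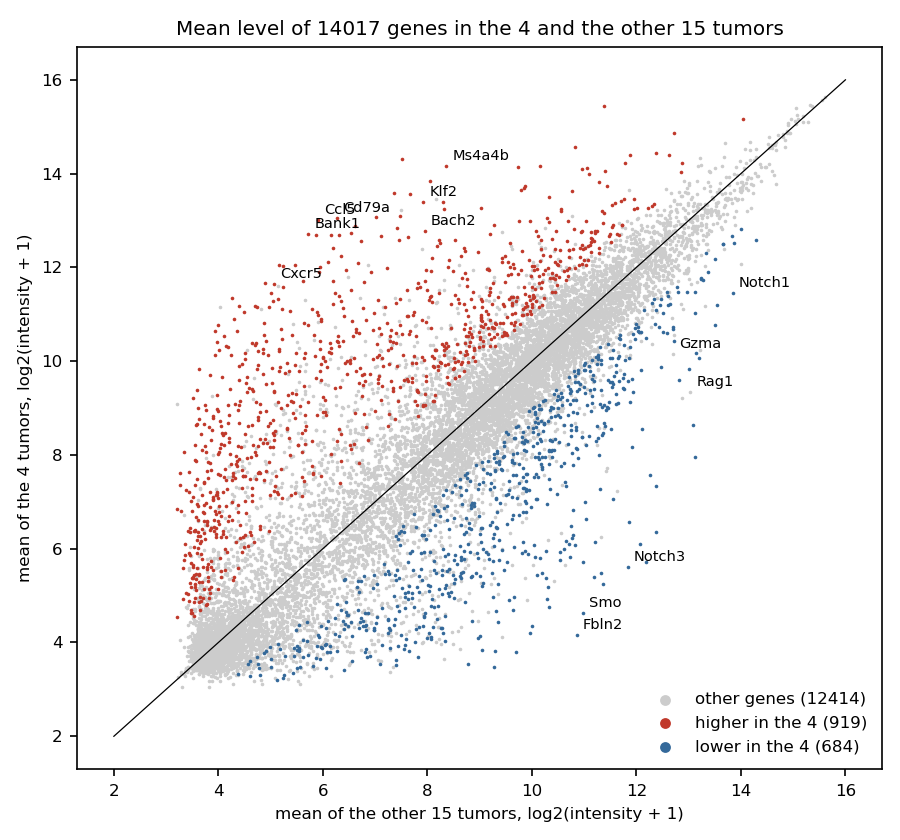
Mean level of each of 14017 genes in the 4 tumors (vertical) against the other 15 (horizontal), both log2(intensity + 1), with the line of equal level. Red points are the 919 genes higher in the 4, blue points the 684 lower; Cd79a, Ccl5 and Bank1 lie far above the line and Fbln2, Smo and Notch3 far below it.

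No WT tumor was among the 4: 4 of 14 tumors labelled HT or KO and 0 of 5 labelled WT were chosen (Fisher's exact test, 2-sided, p = 0.530). With 4 chosen, 0 WT among them is the most extreme result possible toward HT or KO labels. The test thus could not have given a small p in that direction, and nothing is concluded from it. The Stk38 probe set of highest signal read 12.14, 12.10, 12.77 and 13.08 in the 4, against 8.73, 11.42 and 13.04 in the others, and 11.41 ± 0.45 (SD, n = 12) in the thymi. On this probe set both chosen KO tumors had more signal than KO thymi, which read 10.64 to 11.34. The other 5 KO tumors read 8.73, 9.52 and 12.84 (lowest, median, highest). Of the other Stk38 probe sets, 1 of low signal went the same way. It read 5.96 and 6.04 in KO tumors 4 and 6, against 4.05 to 4.39 in KO thymi. Another did not, at 8.12 and 9.19 against 8.75 to 9.50. Because the disrupted part is not given, these probe sets do not check the genotype labels. RNA integrity, read from actin and Gapdh control probe sets as log2 of the 3' over the 5' signal, was 0.59, 0.82, 1.07 and 2.05 in the 4 and 0.18, 0.97 and 4.87 in the others. The 4 lay inside the range of the others, with KO tumor 6 the most 3'-biased of them.

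Genes of antigen receptor signalling were higher together. Of 12 measured genes in the list of the B cell receptor complex and its signalling (of 14 written), 8 were called higher and 0 lower, with a median difference of 5.04. Without Cd79a and Cd79b, which stand for the choice, 6 of 10 were called higher, with a median of 4.91. Bank1, a scaffold of B cell receptor signalling, read 12.96, 11.85, 13.05 and 13.00 against 3.86, 4.89 and 10.58, a 128-fold difference. Cr2, the complement receptor CD21, read 11.51, 9.96, 11.27 and 11.99 against 3.51, 3.89 and 9.49, and was near background in the thymi at 3.92. Btk, the kinase downstream of the receptor, read 10.15, 8.75, 10.40 and 10.43 against 3.37, 4.11 and 8.17. The adaptor Blnk read 11.88, 10.47, 12.12 and 12.27 against 4.72, 6.75 and 9.60, and Plcg2, the phospholipase it recruits, read 11.49, 10.19, 11.44 and 11.04 against 4.10, 5.31 and 9.37. In all of these HT tumor 3 was the lowest of the 4 and still above every other tumor. The tyrosine kinases Blk and Syk had large differences of 4.51 and 3.46 but overlapped the others, because the highest of the other 15 reached 10.64 for Blk and 11.01 for Syk. Cd81, which many cell types express, had a difference of -0.28. Outside this list, Rasgrp3, a Ras activator of B cells, read 12.11, 10.40, 11.94 and 12.21 against 3.46, 4.07 and 9.14.

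Of 15 measured B cell surface receptors (of 16 written), 8 were called higher and 0 lower, with a median difference of 5.48. Without Ms4a1, 7 of 14 were called higher, with a median of 5.42. Fcmr, the Fc receptor for IgM, read 13.48, 11.05, 13.27 and 12.95 against 4.15, 5.94 and 9.33. Cxcr5, the follicle-homing receptor, read 10.99, 11.67, 11.98 and 11.94 against 3.54, 4.63 and 8.24, and was the 1 measured gene of the list where HT tumor 3 was not the lowest of the 4. Tnfrsf13c, the receptor for the survival factor BAFF, read 12.15, 11.00, 12.34 and 12.96 against 3.96, 5.54 and 10.01. Fcrla, an intracellular Fc receptor-like protein of B cells, read 11.58, 10.30, 10.96 and 11.86 against 3.57, 4.06 and 9.00. Cd22, an inhibitory lectin of B cells, differed by 5.72, but HT tumor 3 at 11.79 lay below the highest of the others at 12.12. Fcer2a, the low-affinity IgE receptor CD23, overlapped narrowly, with 9.18 in HT tumor 3 against 9.19. Ly6d read 11.63 to 12.86 and overlapped widely, since the others spanned 4.48 to 13.74. Ccr6, a chemokine receptor of B cells and some T cells that stood outside the lists, read 12.95, 11.35, 11.77 and 12.16 against 3.78, 4.95 and 10.21.

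Of 10 measured B lineage transcription factors (of 11 written), 8 were called higher and 0 lower, and all 10 differences were above 0. Ebf1, the factor that specifies the lineage, read 10.88, 8.97, 10.14 and 11.35 against 3.41, 4.17 and 8.55. Spib read 12.44, 10.92, 12.70 and 12.91 against 4.51, 6.18 and 9.62. Pou2af1, the B cell coactivator of octamer-binding factors, read 13.26, 13.05, 13.55 and 13.16 against 6.06, 8.91 and 10.32, and Pou2f2, the octamer-binding factor OCT2, read 7.62, 7.55, 9.66 and 9.85 against 2.88, 3.37 and 6.49. Bach2, a repressor that holds B cells short of the plasma cell fate and is also active in T cells, was almost level among the 4, at 12.79, 12.79, 12.56 and 12.92, against 6.29, 7.74 and 9.52. The thymi read 10.26 for Bach2, between the groups. Bcl11a and Irf8 overlapped the others, with differences of 5.69 and 3.32. Pou2af1 and Bach2 had an SD of 0.21 and 0.15 among the 4, whereas Cd79a and Fcmr had 1.09 and 1.11.

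Promoter sequence is shown for 4 of these genes as examples. These genes were called higher together with Ebf1, Pou2f2 and Pou2af1, whose products act at EBF and octamer motifs. The windows are the 250 bases before the annotated start in RefSeq (GRCm38.p6), written 5' to 3' on the gene's strand, with capitals marking a match to the octamer ATGCAAAT or the EBF core CCCNNGGG on either strand. Cd79a lies at chr7:24897247-24897496 on the + strand and holds no match. Blnk lies at chr19:40994222-40994471 on the - strand and holds an octamer in reverse orientation, 130 to 123 bases before the start. Bank1 at chr3:136326067-136326316 on the - strand and Spib at chr7:44532072-44532321 on the - strand hold EBF core letters.
Cd79a: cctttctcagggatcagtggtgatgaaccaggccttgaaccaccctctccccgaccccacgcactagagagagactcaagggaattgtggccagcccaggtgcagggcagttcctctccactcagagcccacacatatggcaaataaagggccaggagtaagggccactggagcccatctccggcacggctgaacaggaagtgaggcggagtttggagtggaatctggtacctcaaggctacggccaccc
Blnk: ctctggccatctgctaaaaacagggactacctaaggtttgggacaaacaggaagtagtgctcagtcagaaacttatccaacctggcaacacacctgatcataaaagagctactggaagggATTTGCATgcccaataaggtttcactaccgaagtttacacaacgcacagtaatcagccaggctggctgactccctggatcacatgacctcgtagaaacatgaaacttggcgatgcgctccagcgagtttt
Bank1: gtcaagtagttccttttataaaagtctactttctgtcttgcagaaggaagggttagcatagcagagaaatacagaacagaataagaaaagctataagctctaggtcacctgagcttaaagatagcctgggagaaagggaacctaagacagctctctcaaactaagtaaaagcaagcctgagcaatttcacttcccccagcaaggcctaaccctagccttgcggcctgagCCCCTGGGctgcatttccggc
Spib: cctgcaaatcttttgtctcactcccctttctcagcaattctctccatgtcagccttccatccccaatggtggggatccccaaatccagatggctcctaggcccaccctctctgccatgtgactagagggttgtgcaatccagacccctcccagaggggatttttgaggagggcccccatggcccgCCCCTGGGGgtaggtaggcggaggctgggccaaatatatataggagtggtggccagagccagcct
Of the 37 measured genes of the 3 lists above, 30 had a promoter in the table, and 1 of them (3.33%) held the octamer and 4 (13.3%) the EBF core. Among 27025 promoters of the same length, 1.61% held the octamer and 11.7% the EBF core. Most of the 30 thus held no match, so the 4 windows shown do not stand for them. The promoter of Notch3, called lower in the 4 tumors, also held an EBF core match, and that of Notch1 held none. In Spib 2 overlapping core matches make 1 run of capitals. A match is a string of letters and not a binding site, and its absence says only that the letters are not in this window.

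Immunoglobulin probe sets were read by their annotation, since this array carries few constant-region genes with a single name. Of 49 such probe sets, 26 were called higher and 0 lower: 13 of 18 heavy chain, 9 of 26 kappa, 3 of 4 lambda and the 1 for J chain. The main Ighm probe set (IgM heavy chain) read 14.97, 14.83, 14.93 and 14.78 against 11.00, 12.90 and 14.37. Ighg3 (IgG3) read 14.82, 14.32, 14.74 and 13.35 against 4.56, 7.62 and 11.55, and Igha (IgA) read 13.90, 14.30, 14.52 and 13.92 against 5.66, 10.07 and 13.38. Heavy chains of 3 classes were thus high in each of the 4. Of the light chains, Igk read 12.62, 13.20, 12.14 and 10.08 against 3.56, 5.79 and 9.61, and the Iglv1 probe set of highest mean read 13.43, 12.30, 12.11 and 9.38 against 3.51, 5.92 and 9.86, overlapping through KO tumor 6. KO tumor 6 was the lowest of the 4 for 34 of the 49 probe sets and HT tumor 1 the highest for 26. KO tumor 6 was the lowest for 18 of 26 kappa and 3 of 4 lambda probe sets, and the highest for 2 and 1. A kappa probe set where it was highest, whose annotation includes Igkc, read 14.41, 14.47, 14.84 and 15.01. That probe set overlapped the others, which reached 14.67. The lambda probe set where it was highest, for Iglv1, read 12.20, 10.39, 11.35 and 12.31. Outside these probe sets, KO tumor 6 was the highest for Cd22, Spib and Tnfrsf13c. Probe sets for variable regions cross-hybridise between family members, so a single one does not stand for 1 gene.

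**Figure D3:**
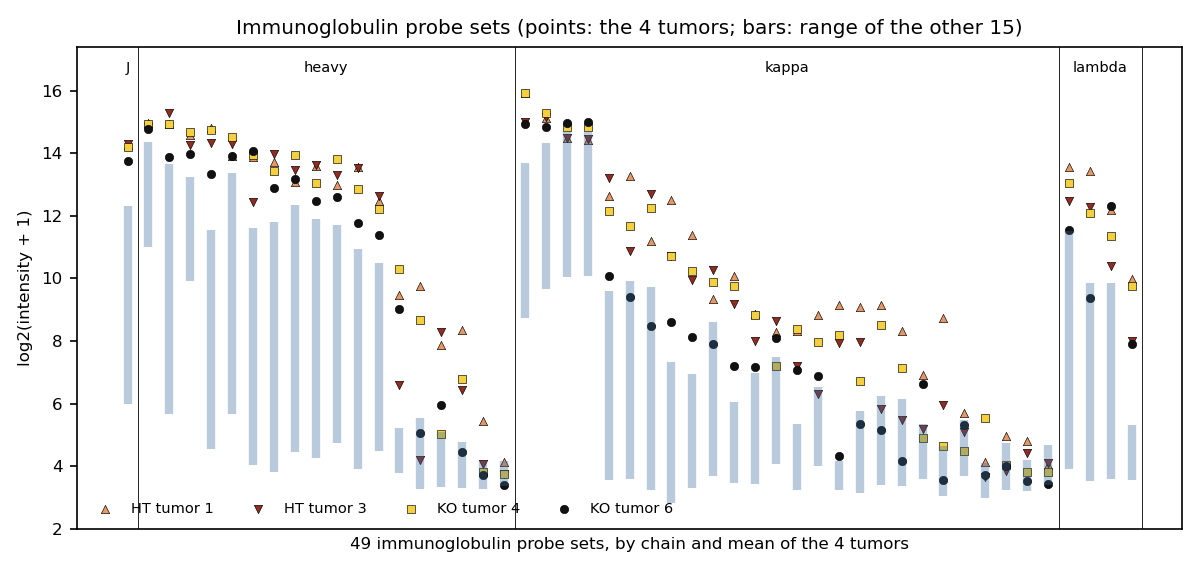
Level (log2(intensity + 1)) of 49 immunoglobulin probe sets, grouped by chain and ordered by the mean of the 4 tumors; points are the 4 tumors and bars the range of the other 15. KO tumor 6 (black) is the lowest of the 4 in 34 probe sets and falls into the range of the others for many kappa probe sets.

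Genes of the plasma cell, the antibody-secreting end of the lineage, were also higher: 8 of 11 measured, 0 lower, with a median difference of 2.56. Mzb1, a chaperone for antibody assembly, read 12.93, 12.38, 12.99 and 12.60 against 4.25, 6.43 and 9.06. Jchain, which links IgA and IgM into polymers, read 14.27, 14.31, 14.22 and 13.76 against 5.98, 10.24 and 12.31. Prdm1, the factor that drives secretion, read 8.46, 8.65, 8.49 and 6.96 against 3.10, 4.13 and 4.90. Sdc1 (CD138) had a difference of -1.13 and overlapped, at 9.34, 11.41, 9.26 and 8.76 against 9.13, 10.91 and 11.49. Of 10 measured pro-B and pre-B genes, 3 were called higher (Vpreb3, Il7r and Ebf1) and 1 lower (Bst1), with a median difference of -1.01. Vpreb1 and Igll1, the surrogate light chain genes of pre-B cells, differed by 0.56 and -0.20 and overlapped the others. Rag1, the recombinase of both lymphoid lineages, read 12.42, 12.01, 4.57 and 8.36 against 10.64, 13.40 and 14.37, so that the HT tumors lay inside the range of the others and the KO tumors below it. Of 6 measured germinal centre genes, only Gcsam was called, at 6.62, 4.52, 7.77 and 6.53 against 3.11, 3.50 and 3.68. The germinal centre list averaged 7.38, 5.89, 8.44 and 7.90 in the 4, with HT tumor 3 inside the range of the others (5.03 to 6.00). Bcl6, the master factor of that stage, read 10.81, 10.52, 11.50 and 11.87 against 7.97, 9.67 and 10.82, and was as high in the thymi at 11.59. Of 10 measured marginal zone and B1 genes, Cr2, Zbtb32, Notch2 and S1pr3 were called higher and Dtx1 lower.

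Antigen presentation genes were higher in 9 of 11 measured (of 12 written), 0 lower, with a median difference of 3.85. The class II chain H2-Aa read 13.74, 13.41, 13.79 and 13.55 against 9.22, 10.90 and 12.28. The invariant chain Cd74 read 14.80, 13.97, 14.84 and 14.65 against 9.44, 10.93 and 12.28. Cd83, which stabilises class II at the surface, read 12.75, 11.37, 12.70 and 12.83 against 4.07, 5.95 and 8.93. Ciita, the class II transactivator, divided the 4 by label, at 7.22 and 4.38 in the HT tumors and 10.43 and 10.74 in the KO tumors, against 3.28, 4.36 and 6.43.

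T cell receptor genes did not separate the groups. Of 14 measured genes of the TCR, CD3 and T identity list (of 17 written), 0 were called higher and 2 lower, with a median difference of -0.28. Cd3e, a chain of the T cell receptor complex, read 11.96, 11.97, 12.15 and 11.29 against 11.80, 12.59 and 13.02. Cd3d read 13.60, 13.65, 13.35 and 12.30 against 12.13, 13.30 and 14.14. The 2 called lower were the adaptor Lat, with a difference of -1.15, and Thy1, with -1.17. T cell signal was therefore within the range of the other tumors for CD3 chains, except Cd3e in KO tumor 6 and Cd3g, where KO tumor 6 (11.50) also lay below the others' lowest (11.66).

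Of 11 measured genes of mature T cells and thymic egress (of 13 written), 8 were called higher and 0 lower, with a median difference of 4.04. Klf2, the factor that switches on egress genes, read 13.32, 13.08, 13.57 and 13.58 against 4.80, 7.93 and 10.85. Its target S1pr1, the receptor that leads lymphocytes out of tissue, read 10.04, 9.47, 10.30 and 8.80 against 3.20, 4.07 and 4.99. Ms4a4b, a membrane protein of mature T cells, read 14.24, 14.50, 14.02 and 13.90 against 4.20, 9.03 and 10.64. The thymi lay between, at 9.65 for Klf2, 6.54 for S1pr1 and 12.46 for Ms4a4b. Klf2, S1pr1 and Ccr7 are also expressed by resting B cells. Of 10 measured helper, follicular and regulatory T genes, 4 were called higher: Foxp3, Tnfrsf18, Pdcd1 and Il21. Foxp3, the factor of regulatory T cells, read 8.74, 7.14, 8.81 and 6.78 against 3.33, 3.48 and 4.03. The cytokine Il21 read 8.16, 6.69, 8.28 and 6.33 against 3.19, 3.66 and 3.82.

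Of 13 measured genes of double-positive thymocytes, the CD4+ CD8+ stage that fills the normal thymus, 1 was called lower (Arpp21) and 0 higher, 2 had a difference above 0, and the median difference was -2.16. Their mean was 10.47, 10.48, 7.53 and 8.50 in the 4, 10.50, 11.47 and 12.15 in the others and 12.95 ± 0.04 (SD, n = 12) in the thymi. All 4 means were below all 15 others, the HT tumors narrowly and the KO tumors by more. Ptcra, the pre-T receptor chain, read 4.92, 9.10, 3.73 and 4.84 against 8.54, 11.29 and 12.55, overlapping through HT tumor 3. Cd8a read 11.86, 11.39, 10.64 and 10.85 against 9.39, 12.08 and 13.36, inside the others' range. Dntt, which adds bases at receptor junctions, read 11.66, 11.69, 5.12 and 8.38 against 11.49, 12.99 and 13.57. Of 9 measured genes of the earlier double-negative stage, 4 were called higher. These were Hhex, Lmo2, Mef2c and Spi1, which B cells and myeloid cells also express, whereas Il2ra and Kit differed by -1.17 and -3.08 and overlapped.

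Notch genes were lower in the 4. Of 9 measured receptors and targets (of 10 written), 4 were called lower and 1 higher, with a median difference of -2.39. Notch1, the receptor that commits cells to the T lineage, read 11.37, 12.08, 11.26 and 11.08 against 13.17, 13.98 and 14.24, a difference of -2.39. The thymi read 10.83 to 11.66 for Notch1, so 3 of the 4 lay in the thymus range and all 15 others above it. Notch3, itself a Notch1 target, read 4.55, 8.25, 4.10 and 5.52 against 10.67, 11.91 and 12.83, and the thymi averaged 8.61. Heyl, a Notch target, read 3.51, 3.83, 3.64 and 3.54 against 4.19, 7.66 and 9.87, and 3.46 in the thymi. Dtx1, another target, read 9.94, 10.85, 10.21 and 10.70 against 10.89, 12.78 and 13.64, and 7.44 in the thymi. Hes1 read 5.25, 6.31, 4.82 and 5.98 against 5.88, 9.18 and 10.89 and overlapped. Notch2, the receptor used by marginal zone B cells, was the 1 called higher, at 11.98, 11.57, 11.77 and 12.57 against 9.32, 10.14 and 10.91, although its other probe set had the opposite sign. The mean of the Notch list was 7.58, 8.83, 7.25 and 7.67 in the 4, against 9.67, 10.72 and 11.04, and 7.85 ± 0.18 (SD, n = 12) in the thymi.

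Cell division genes were lower. Of 17 measured mitosis genes, 6 were called lower, and of 17 measured DNA replication genes 11 were called lower, with 0 higher in either list and median differences of -2.13 and -1.54. Cdc6, which loads the replicative helicase, read 7.93, 9.02, 7.84 and 7.24 against 10.13, 11.29 and 11.84. Mcm7, a helicase subunit, read 12.45, 12.80, 12.55 and 12.28 against 13.65, 13.85 and 14.10. Cdk1, the mitotic kinase, read 9.69, 10.00, 8.98 and 7.14 against 10.24, 11.60 and 12.10. Mki67 overlapped, at 12.28, 12.46, 12.66 and 12.14 against 12.42, 13.69 and 14.23. KO tumor 6 had the lowest mitosis mean, 8.23, and the 4 lay below the thymi too, which averaged 11.54 for mitosis and 11.25 for replication. Among the other tumors, HT tumor 4 had a mitosis mean of 9.80, just above HT tumor 3 at 9.76. It also lay below the lowest thymus (11.28), as did HT tumor 7, KO tumor 3 and KO tumor 7. Of 13 measured MYC targets and ribosome biogenesis genes, 2 were called lower (Nop58 and Nolc1) and all 13 differences were below 0, with a median of -0.82. Of 11 measured glycolysis genes, Tpi1 alone was called lower, with a median of -0.55.

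Interferon response genes were higher in 7 of 13 measured (of 16 written), 0 lower, with a median difference of 3.62. Ifit1, an antiviral RNA-binding protein, read 10.56, 9.47, 9.90 and 9.65 against 3.30, 4.01 and 6.11. Oas1a, a sensor of double-stranded RNA, read 12.03, 10.77, 11.40 and 11.89 against 4.86, 6.78 and 8.29. Irf7, the factor that amplifies interferon output, read 9.97, 9.26, 9.64 and 10.02 against 5.22, 6.61 and 7.97. Usp18, also induced by interferon, had a difference of 0.15 and overlapped. The interferon list averaged 7.95 ± 0.28 (SD, n = 12) in the thymi, above the other tumors' highest mean of 7.68.

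Among survival genes, Bcl2 and Pmaip1 were the 2 of 10 measured called higher. Bcl2, which blocks apoptosis, had a lowest value of 11.79 in the 4 against 6.58, 10.31 and 10.99, a difference of 1.90. Pmaip1 (NOXA), which promotes it, read 9.98, 10.46, 10.14 and 10.10 against 3.65, 4.68 and 5.56. Bcl2l11 (BIM) read 12.21, 12.23, 10.90 and 12.21 against 10.56, 12.40 and 13.50 and did not separate the groups. Of 12 measured genes of the NDR and Hippo kinase pathway, Mob1a, a coactivator of NDR kinases, and Lats2, a related kinase, were called higher, with differences of 1.37 and 2.25. Stk38l, the gene of the sister kinase NDR2, read 6.46, 6.88, 6.47 and 6.08 against 3.91, 5.88 and 6.94 and overlapped.

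**Figure D4:**
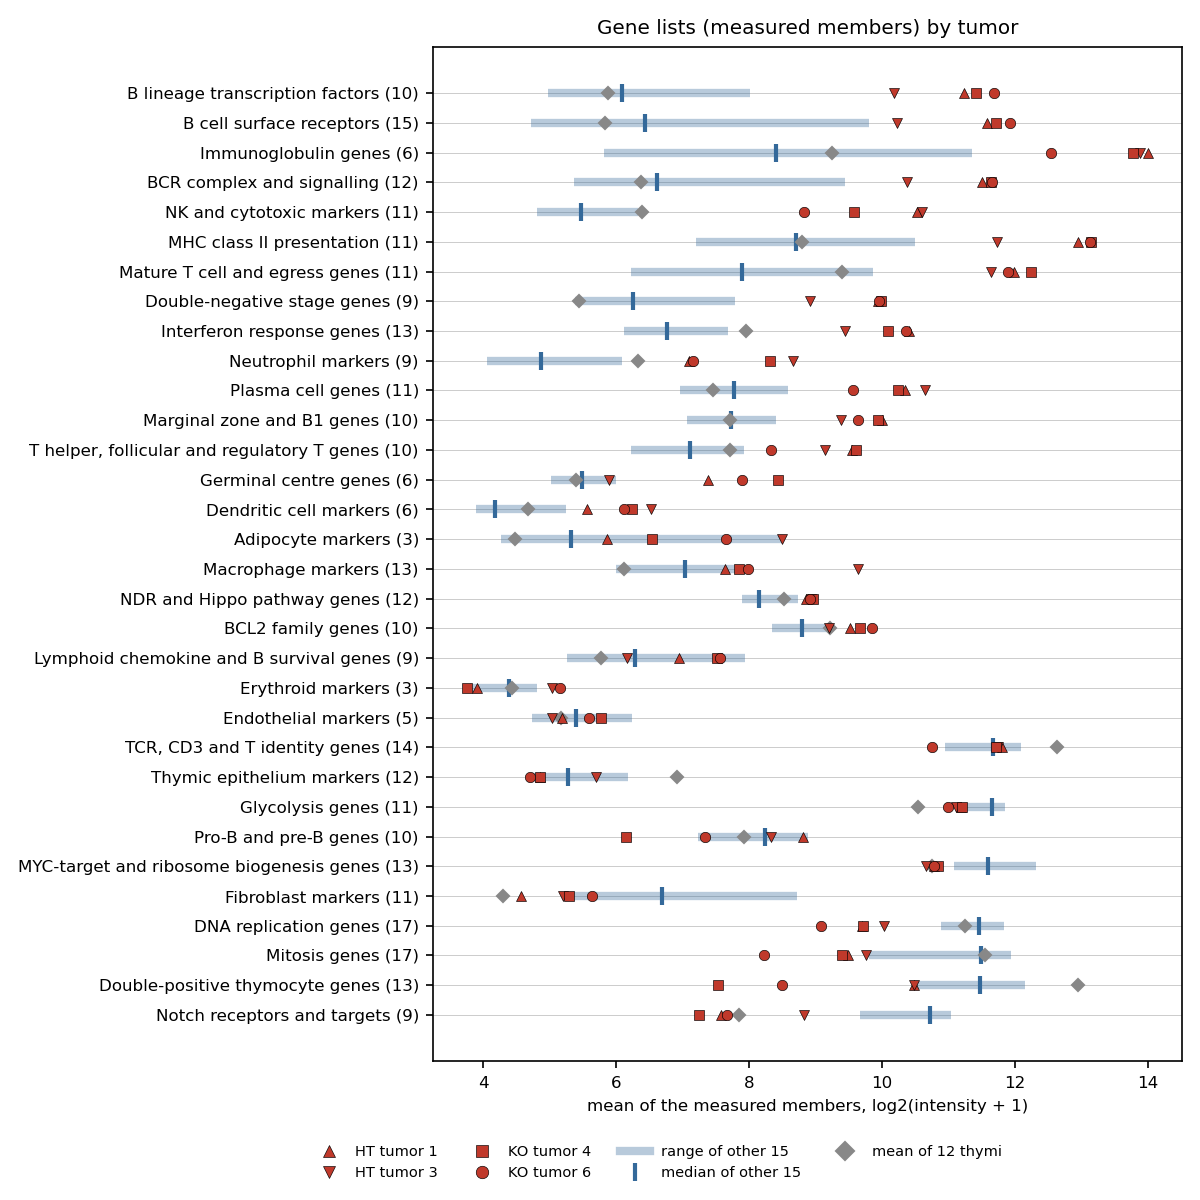
Mean level of the measured members of 32 gene lists (log2(intensity + 1), horizontal) in the 4 tumors (red symbols), with the range (bar) and median (tick) of the other 15 and the mean of the 12 thymi (grey diamond). B cell receptor, surface receptor, transcription factor, class II, mature T and NK lists lie right of the bars and Notch, mitosis and replication lists left of them.

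Some markers of other cell types were also higher in the 4, and others were not. Of 11 measured NK and cytotoxic markers (of 13 written), 8 were called higher and 0 lower, with a median difference of 4.20. Of the 3 genes chosen to define NK cells, Klrb1c and Ncr1 were not measured. Prf1, the 1 measured, read 8.52, 8.96, 7.16 and 6.57 against 3.37, 5.02 and 7.15, overlapping through KO tumor 6. The list thus does not tell NK cells from activated T cells. Ccl5, a chemokine of activated T and NK cells, had the largest difference of all genes called, 7.10 (137-fold), at 13.65, 12.88, 12.86 and 12.65 against 3.92, 5.63 and 9.17. Nkg7, a granule protein, read 12.42, 11.97, 10.87 and 9.87 against 3.32, 5.07 and 7.77, and Eomes, a factor of memory CD8 and NK cells, read 10.77, 13.14, 10.47 and 10.28 against 3.14, 4.06 and 8.19. Gzma had a difference of -2.55 and overlapped, at 11.46, 11.51, 8.23 and 9.42 against 10.32, 12.92 and 13.95, while Gzmb read 10.26, 10.47, 9.14 and 6.08, each above all others. Of 9 measured neutrophil markers, 4 were called higher. S100a9 read 11.61, 12.35, 12.59 and 11.56 against 3.33, 4.38 and 9.94, but thymi also carried it, at 7.23 to 11.87. Of 13 measured macrophage markers, Lyz2 and Timd4 were called higher, and of 6 measured dendritic cell markers, Itgax and Zbtb46. The defining macrophage genes Adgre1, Csf1r, C1qa and C1qb were not called. They averaged 9.60, 11.13, 9.39 and 10.37 against 7.02, 8.89 and 10.40, so only HT tumor 3 lay above the others. List means of NK markers ran from 8.82 to 10.60 in the 4 and from 4.81 to 6.33 in the others, those of neutrophil markers from 7.10 to 8.67 and from 4.05 to 6.09. Macrophage means ran from 7.64 to 9.64 and from 6.00 to 7.82, with HT tumor 3 the highest. HT tumor 3, lowest of the 4 for B cell receptor genes, also had the highest NK and neutrophil means. Fibroblast markers had a median difference of -1.05 over 11 measured, with Pdgfrb called lower and Col1a1, Col3a1 and Dcn overlapping. Thymic epithelial markers did not separate the groups, with 0 of 12 called and a median difference of -0.23. Their defining genes Foxn1 and Psmb11 were near background in the 4, at 3.29 to 3.54 and 2.98 to 3.14, and Prss16 read 4.91 to 5.51 against 8.56 in the thymi. The other 15 tumors read 3.36 to 3.86 for Foxn1 and 2.98 to 3.70 for Psmb11, also near background, and reached 5.81 for Prss16. Which tissue the 4 samples came from is known only from the label. Of 9 measured lymphoid chemokine and B survival genes, 0 were called, and Cxcl13, the ligand of CXCR5, read 6.55, 5.35, 7.32 and 7.23, inside the range of the others from 4.02 to 10.45. Endothelial (Egfl7 lower, 1 of 5), erythroid (0 of 3) and adipocyte (0 of 3) lists gave median differences of 0.23, 0.54 and 1.87. The part of these cell types in the results was not tested.

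Of the 15 genes with the largest differences among those called higher, those not yet described were B3gnt5, Ms4a4c, Gm8369, Slc9a7 and Nt5e. B3gnt5, a glycosyltransferase of glycolipids, read 11.86, 10.59, 11.37 and 11.57 against 2.75, 3.85 and 7.27, and 7.97 in the thymi. Slc9a7, a sodium/proton exchanger, read 10.49, 9.60, 10.85 and 11.64 against 3.37, 4.03 and 4.37, the narrowest spread of the others among these 5. Nt5e, the ectonucleotidase CD73, read 10.83, 11.42, 11.09 and 10.26 against 3.37, 4.22 and 5.33. Its other probe sets, of low signal, differed by only 0.84 and 0.08. Ms4a4c, a relative of Ms4a1, differed by 6.90 and Gm8369 by 6.79.

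The 15 largest differences among genes called lower began with Fbln2, an extracellular matrix protein. Fbln2 read 3.72, 5.87, 3.66 and 3.38 against 8.63, 10.78 and 12.49, a difference of -6.70, and 7.89 in the thymi. The other Fbln2 probe set, of low signal, differed by -0.75. Smo, the signal transducer of Hedgehog, read 4.67, 6.94, 3.47 and 3.45 against 9.99, 10.64 and 12.24. Arsi, a sulfatase, read 4.73, 8.73, 4.36 and 5.05 against 11.68, 12.04 and 13.17. Pdgfrb, a growth factor receptor often used as a stromal marker, read 6.43, 8.61, 4.51 and 5.90 against 10.29, 12.75 and 13.46, while the thymi averaged 6.28. Gfra1, a receptor subunit for GDNF, read 6.66, 9.65, 3.30 and 4.75 against 10.58, 12.15 and 12.98. Greb1 read 2.81, 4.86, 3.29 and 2.92 against 7.13, 9.43 and 11.69, with 3.81 in the thymi. In each of these genes HT tumor 3 was the highest of the 4. The others were Syt13 (-6.11), Vwce (-5.90), Sall3 (-5.85), Hacd1 (-5.78), Zfp704 (-5.76), Nt5dc2 (-5.66), Myh10 (-5.57) and Gm4371 (-5.48), besides Notch3 (-6.23).

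Untreated thymus gave a common point of reference. Of the 919 genes higher in the 4, 732 (79.7%) had all 4 tumors above all 12 thymi, and 161 (17.5%) had all 15 others below all thymi. Over all 14017 genes these shares were 15.3% and 3.55%. Of the 684 lower genes, 482 (70.5%) had all 4 below all 12 thymi, and 158 (23.1%) had all 15 others above all thymi, against 17.6% and 2.80% over all genes. The mean of the 4 was nearer to the thymus mean than the mean of the others for 240 of the higher (26.1%) and 252 of the lower genes (36.8%), and for 46.4% of all genes. Calls and thymus positions share the values of the tumors, so nothing more is read from these shares. Cd79a is an example of the first pattern, with a difference from thymus of 7.77 in the 4 and 0.99 in the others. Pdgfrb is an example where the others stood apart, with 0.09 in the 4 and 6.10 in the others. Ms4a4b differed on both sides, with 1.70 in the 4 and -4.10 in the others.

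**Figure D5:**
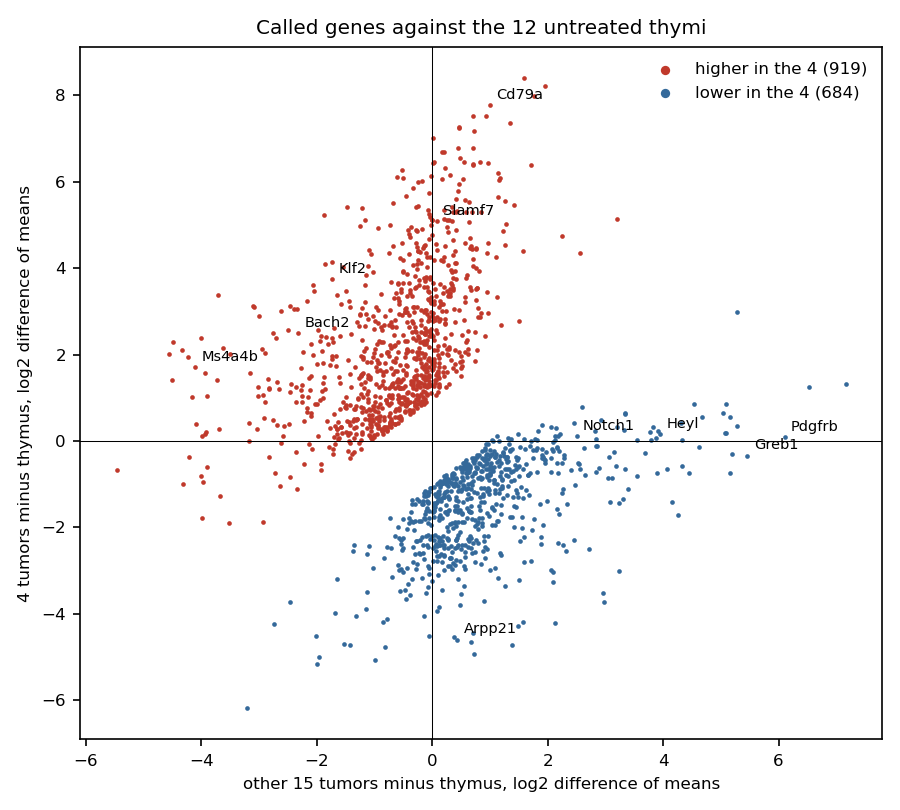
Difference from the mean of the 12 untreated thymi (log2) for the 4 tumors (vertical) and the other 15 (horizontal), for the 919 genes higher (red) and 684 lower (blue) in the 4. Points near the vertical axis, such as Cd79a, differ from thymus mostly in the 4, and points near the horizontal axis, such as Pdgfrb and Notch1, mostly in the other 15.

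The 4 were not uniform. The median SD over genes was 0.33 in the 4, 0.56 in the other 15 and 0.19 in the thymi. HT tumor 3 was the lowest of the 4 for most B cell receptor and class II genes and the highest for Notch3, Fbln2 and Pdgfrb, each time on the side of the other tumors. Leaving HT tumor 3 out gave 1080 genes higher and 862 lower. The KO tumors were lower than the HT tumors for Rag1, Dntt and Arpp21, the last at 8.94, 10.42, 3.60 and 6.42. Bpifa2, a secreted protein of the parotid gland chosen after its values were seen, read 3.25, 10.28, 11.40 and 11.41 and was at most 3.44 in every other tumor and thymus. It was thus high in 3 of the 4, and its part in the results was not tested.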

How the data were processed

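The deposited values were intensities on a linear scale, 1 per probe set and array, made by the authors with GCRMA (version not stated), per the submitters' processing notes. GCRMA corrects background, normalizes arrays to each other and summarises probes, so every array had the same median of 20.0. The labels' labelling protocol names a whole-transcript kit, while the array reads 3' ends. The number of arrays limits the precision.

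From the deposited intensities, log2(intensity + 1) was computed with Python 3.11.15, pandas 2.3.3 and numpy 2.4.6. Of 45101 probe sets, 34944 named 1 gene, 932 several and 9224 none, by the supplied platform annotation, which can be old, and 1 had no value. Each gene took its probe set of highest mean, and genes with a mean above the 25th percentile (3.61) were kept, leaving 14017 of 18192 (77.1%).

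The 4 tumors, the 32 gene lists and the alternatives were chosen with earlier results of these data known. No p was computed for the 4 against 15. Genotype labels were compared by Fisher's exact test (scipy 1.17.1). Genes were named by rule: Cd79a, Cd79b, Ms4a1, Stk38, Stk38l and Bcl2l11, the 15 called genes of largest difference per direction, up to 4 members of each list of largest difference with its first 3, and immunoglobulin probe sets. Other members of the lists and other genes with values were chosen after their values were seen. Genes with no single-gene probe set or below the filter stayed out of the gene comparison; immunoglobulin and unnamed probe sets were read separately. The calls were tested on simulated data. Motifs were searched in RefSeq promoter windows (GRCm38.p6).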

Additional observations from a re-analysis of the deposited data

Results flagged for a closer look

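In the 4 tumors, some values had 1 tumor far from the other 3, relative to the range of the 4, and chance gives about 1 such case in 20 groups of this size. This held for 6 of 32 gene lists and 5 of 35 named genes looked at, and the lists share genes and tumors. HT tumor 3 stood apart with a mean of 10.38 for B cell receptor genes, 11.73 for MHC class II genes and 8.92 for double-negative stage genes, all low, and 5.69 for thymic epithelial markers, which was high. The same tumor was low for Bank1 (11.85) and Rasgrp3 (10.40) and high for Fbln2 (5.87) and Arsi (8.73). KO tumor 6 stood apart with the lowest immunoglobulin mean, 12.54, and the lowest mean of TCR, CD3 and T identity genes, 10.75. KO tumor 4 was low for Bcl2l11, at 10.90.

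The mean of the pro-B and pre-B list differed from the other tumors of the same label by -1.46 in the KO tumors and by 0.53 in the HT tumors. Each chosen tumor was on that side of the mean of the others of its label. By the median over members, as given for the lists above, the differences were -1.49 in KO and -0.28 in HT. The opposite signs thus hold for the list mean only. The mean of endothelial markers differed by 0.20 in KO and -0.14 in HT, and the median by 0.82 and -0.13. In both lists single chosen tumors overlapped single others. Neither difference between the labels was tested, and each rests on 2 tumors per label. The pro-B and pre-B list shares Rag1, Rag2 and Dntt with the double-positive thymocyte list, so it does not read B cell precursors alone. Rag1 and Dntt were lower in the chosen KO tumors than in the chosen HT tumors.

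Probe sets that name no gene or several genes were left out of the gene comparison. Of 6360 such probe sets above the filter on low values, 251 (3.95%) were higher in the 4 and 124 (1.95%) lower by the same rule, and 210 of the higher ones also had all 4 tumors above all 12 untreated thymi.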

How the results depend on the processing

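No paired analysis was possible because the 4 and the 15 are not groups of the labels, so replicate numbers do not match them and the differences come from no test. The counts were 919 genes higher and 684 lower. They became 1482 and 1423 within KO tumors alone, 1422 and 1343 within HT tumors alone, 587 and 374 with a difference of at least 2, and 1864 and 1834 where overlap was allowed. Fewer tumors, a higher limit and a dropped criterion set these by construction. Leaving out each tumor in turn gave 913 to 1080 higher and 688 to 862 lower, both highest without HT tumor 3; leaving out the other 15 singly was chosen after seeing the data. A pseudocount of 16, no filter on low values, the mean of a gene's probe sets, centring each array on its median, females only, genotype or the 3'/5' ratio as a term, and omission of KO tumor 3 all gave counts within 1.5 times. The genes called changed more. The mean of a gene's probe sets kept 747 of the 919 higher and 557 of the 684 lower calls, the fewest of these settings. There, 10 of 35 named genes moved by more than the SD of the other tumors, and 8 with a pseudocount of 16. Lists with a median difference of at least 1 numbered 17, and 16 or 17 without single tumors, and those at -1 or below 6, and 4 to 6. Fisher's exact p for genotype labels was 0.530, and 0.278 to 0.524 without single tumors, under the limit given above. No list with a median of at least 1 in size changed sign. The same held for called genes named by the rule, where leaving out tumors cannot turn the sign by construction. Low values near background are compressed, which limits folds for genes absent in one group.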

Other observations

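The genes given here varied most among the 4 and were chosen for that after their values were seen; Marco, Krt18 and Epcam are members of the lists, and Bpifa2, Amy1, Dsp and Cav1 are not. Bpifa2, a secreted protein of the parotid gland, read 10.28, 11.40 and 11.41 in HT tumor 3, KO tumor 4 and KO tumor 6 but 3.25 in HT tumor 1. In the other 15 tumors its highest value was 3.44, and in the 12 thymi 3.44 as well. Amy1, the amylase of salivary gland, read 3.50, 7.38, 9.55 and 10.18 in HT tumor 1, HT tumor 3, KO tumor 4 and KO tumor 6, against a median of 4.13 and a highest value of 7.61 in the others. Bpifa2 was thus high in 3 of the 4 tumors and near background on the other 28 arrays, whereas Amy1 exceeded every one of the others only in KO tumor 4 and KO tumor 6. No list of salivary gland genes had been written, and the part of such tissue in the results above was not tested.

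HT tumor 3 alone was high for another group. Dsp, a desmosome protein of epithelia, read 11.95 there and 3.85 to 3.99 in the rest of the 4. Cav1, a coat protein of caveolae, read 10.91 there and 3.81 to 3.98 in the rest. Krt18, an epithelial keratin, read 10.53 against 3.78 to 4.65, and Marco, a scavenger receptor of macrophages, 10.68 against 3.19 to 6.61. Epcam read 11.68 in HT tumor 3 and 5.86 to 8.18 in the rest. Among the other 15 tumors the highest values were 6.24 for Dsp, 7.45 for Cav1, 7.13 for Krt18 and 10.12 for Epcam, so HT tumor 3 exceeded every other tumor for these genes.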
